A study of Mus musculus with 20 samples.

Results

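*Tspan3* and *Slc16a6* were the genes limma called between α6+Sca1+ keratinocytes that carried a lineage label (Thy1hiYFP+ cells) and unlabelled Thy1hi keratinocytes, and they are described here over all 20 libraries of the series. Other fits of this comparison called between 0 and 161 genes. The 161 came from a block on replicate number over all populations, where same-numbered libraries are not known to be related. *Tspan3* and *Slc16a6* are 2 of the 53380 genes in the table of normalized counts and 2 of the 17204 genes tested (those that reached a value of 10 in 3 or more libraries). Both passed that filter. They were chosen by their difference between Thy1hiYFP+ and Thy1hi cells, so every value that involves either population is a description with no test. Only Thy1- cells, HFSCs and DETCs, whose levels the choice did not use, were tested against each other. The choice did use the spread within these populations, since limma estimates 1 error from all 20 libraries, and the same error enters their tests, so that the genes may have been favoured for a small spread.

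The libraries came from 5 populations sorted from dorsal mouse epidermis. Thy1hi cells (4 libraries) and Thy1- cells (4) are basal keratinocytes with integrin-α6 and Sca1 that were split by surface Thy1. HFSCs (4) are hair follicle stem cells, sorted with integrin-α6 and CD34 and without Sca1. DETCs (5) are the dendritic T cells that live in the epidermis, sorted with Thy1, without integrin-α6 and with low Sca1. Thy1hiYFP+ cells (3) had the Thy1hi surface phenotype and also expressed EYFP from the Rosa26 locus, switched on by a tamoxifen-inducible Cre driven by Thy1 regulatory sequence, so that cells with an active transgene were labelled. By the study's methods the Thy1hiYFP+ cells came from Thy1-CreERT2;R26-EYFP mice given tamoxifen, and the other populations from wild-type C57BL/6J mice of 8 weeks. The sample labels disagree with this. They give every sample the genotype Thy1.2CreERT2-Rosa26-EYFP and no treatment, ages that rise from 8 to 27 weeks along the samples, and a Sca1-negative cell type for the Thy1hiYFP+ samples whose titles say positive. The label, the mouse line, tamoxifen and any batch therefore cannot be told apart between Thy1hiYFP+ cells and the rest. Batches of preparation were not given per sample, and the number of mice in each library is unclear, so the p-values measure the spread between libraries, which may be partly technical.

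The libraries held 7781256 to 12982392 reads on genes. The marker genes of the populations went with most of their labels. The summed level of 8 T cell genes was 20706 to 42625 normalized counts in DETCs and at most 447 elsewhere. That of 8 hair follicle stem cell genes was 29348 to 60434 in HFSCs, although the highest Thy1hi and Thy1- libraries reached 36976 and 34675. These genes include *Krt15*, which the paper counts among the basal keratins of its Thy1-expressing cluster, and a sum follows its most abundant genes. DETC libraries also held keratinocyte transcripts. Their summed level of 7 basal keratinocyte genes was 12037 to 48458, against 75567 to 121868 in Thy1- cells. That of 6 differentiated keratinocyte genes was 4503 to 29794, against 28120 to 43044 in Thy1- cells. The part of these transcripts in the DETC levels of *Tspan3* and *Slc16a6* was not tested. No library of the Thy1hiYFP+ cells was checked for the EYFP transcript, which is not analysed here.

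Tspan3 is a tetraspanin, a small protein that crosses the membrane 4 times. Tetraspanins bind each other, integrins, immunoglobulin-like proteins and ADAM proteases, and so gather them in patches of the membrane that bear on adhesion and traffic. In basal keratinocytes they include Cd9 and Cd151, the latter a partner of the laminin-binding integrins. *Tspan3* itself is known as a target of the RNA-binding protein Musashi 2 in leukaemia. Slc16a6, also called MCT7, belongs to the SLC16 family of monocarboxylate transporters, of which the best known carry lactate, pyruvate and ketone bodies across membranes. Slc16a6 is known for ketone body export in the liver, and transport of taurine has also been described for it.

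*Tspan3* (ENSMUSG00000032324.11) lies on the minus strand of GRCm38 chromosome 9, from 56131725 to 56165477. It has 5 annotated transcripts, 3 of them coding, and its exons cover 4274 bases without overlap by another gene. *Slc16a6* (ENSMUSG00000041920.14) lies on the minus strand of chromosome 11, from 109450855 to 109473598. It also has 5 transcripts, 4 of them coding, with 4883 exon bases. *Amz2*, a metalloprotease gene on the opposite strand, covers 1052 of these exon bases (21.5%), and *Arsg*, a sulfatase gene on the opposite strand, covers 48 (0.983%). A microRNA gene on the same strand, *Gm25540*, covers 49 of them and had no reads. The sources used here do not say whether reads were counted by strand, so reads in the parts shared with *Amz2* and *Arsg* cannot be assigned with certainty.

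The promoter of *Tspan3*, the gene with the larger level in labelled cells, is shown as the 250 bases before its RefSeq start (GRCm38.p6, minus strand, chr9:56161071-56161320), 5′ to 3′. The capitals mark its only match to the CCAAT box, which reads in reverse as ATTGG.

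Tspan3 promoter: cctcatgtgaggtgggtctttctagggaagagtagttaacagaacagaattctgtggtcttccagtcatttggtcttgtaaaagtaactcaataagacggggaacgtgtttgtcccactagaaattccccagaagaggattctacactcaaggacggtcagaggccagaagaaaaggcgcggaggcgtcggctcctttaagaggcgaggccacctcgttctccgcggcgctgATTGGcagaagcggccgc

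This stretch lies within an intron of a longer *Tspan3* transcript and holds no annotated *Tspan3* exon. Its GC content is 52.4% and it holds 14 CpG, against medians of 52.4% and 6 over 32851 mouse promoters of the same length. The CCAAT match begins 18 bases before the start, and 33.9% of promoters hold this motif on one strand or the other. Neither strand matched the GC box GGGCGG (in 32.7% of promoters), TATAAA (12.4%), CACGTG (6.02%), the CRE TGACGTCA (1.55%) or the AP-1 site TGACTCA (4.46%). No motif searched contains another of the set. The RefSeq table has no entry for *Slc16a6*.

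*Tspan3* had its highest levels in the 3 Thy1hiYFP+ libraries, at 548, 385 and 621 normalized counts. In the 4 Thy1hi libraries it was at 181, 145, 202 and 129. Every labelled library thus lay above every unlabelled one, with a gap between 202 and 385. The means were 518 ± 121 (SD, n = 3) and 164 ± 33.1 (n = 4), a ratio of 3.16 and a difference of 1.65 on the log2(value + 1) scale (SE 0.25). Since this difference chose the gene, the share of the 17204 genes called in the same comparison (0.0116%) and the share with Thy1hiYFP+ libraries all above Thy1hi libraries (4.92%) are given only as the setting of the choice. In bulk libraries of sorted cells, a larger share of cells with a transcript and more of it per cell cannot be told apart.

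In the other populations *Tspan3* was lower than in both. The Thy1- libraries were at 70.5, 75.2, 82.8 and 73.0, a narrow range with a mean of 75.4 ± 5.31 (n = 4). The HFSC libraries were at 62.3, 122, 59.9 and 71.5, with replicate 2 above the others and a mean of 78.8 ± 29.0 (n = 4). The DETC libraries were at 45.0, 60.0, 38.7, 41.2 and 49.2, with a mean of 46.8 ± 8.37 (n = 5). The order of the means was therefore Thy1hiYFP+, Thy1hi, HFSCs, Thy1- and DETCs. Neighbours in this order were separated between Thy1hiYFP+ and Thy1hi cells, between Thy1hi cells and HFSCs and between Thy1- cells and DETCs, while the libraries of HFSCs and Thy1- cells were interleaved. Thy1hi libraries all lay above HFSC libraries for 9.46% of the genes tested, and labelled libraries all lay above the 17 others for 1.23%.

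The mean of *Tspan3* in labelled cells was 6.88 times that in Thy1- cells, 6.58 times that in HFSCs and 11.1 times that in DETCs. The matching log2 differences were 2.74, 2.73 and 3.43, and no library overlapped in any of these comparisons. Of all genes tested, 7.77%, 11.4% and 18.2% had Thy1hiYFP+ libraries all above those of the same 3 populations. Thy1hi cells also lay above Thy1- cells in every library, with a ratio of the means of 2.18 and a log2 difference of 1.09, an arrangement seen for 3.59% of genes. These comparisons share the Thy1hiYFP+ or the Thy1hi libraries and are not separate pieces of evidence.

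**Figure D1:**
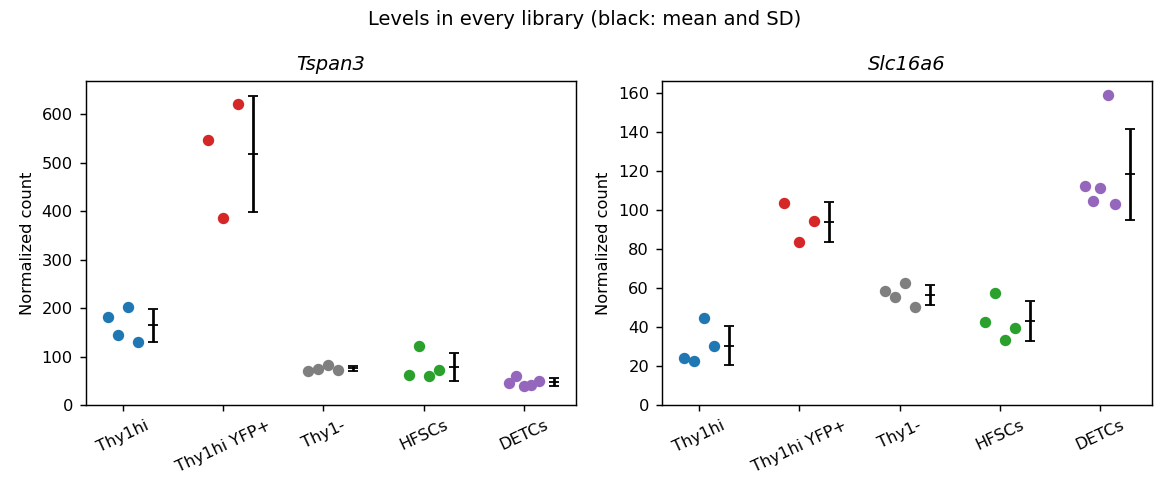
Normalized counts (linear axis from 0) of *Tspan3* (left) and *Slc16a6* (right) in each of the 20 libraries, by population, with 1 point per library and the mean and SD in black. The labelled Thy1hi YFP+ libraries lie above all others for *Tspan3* (385 to 621), whereas for *Slc16a6* they lie between 83.6 and 104, above the other keratinocyte libraries and beside the DETCs.

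*Slc16a6* differed from *Tspan3* in where else it was found. The Thy1hiYFP+ libraries held 104, 83.6 and 94.1 normalized counts. The Thy1hi libraries held 24.3, 22.4, 44.7 and 30.1. The lowest labelled library was thus above the highest unlabelled one, as for 4.92% of genes, a share given only as the setting of the choice. The means were 93.8 ± 10.0 (SD, n = 3) and 30.4 ± 10.1 (n = 4). Their ratio was 3.09 and the log2 difference 1.64 (SE 0.26). The Thy1hi values rest on 17 to 55 reads a library and the labelled ones on 95 to 108.

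DETCs had the highest mean of *Slc16a6*, with libraries at 113, 105, 111, 159 and 103 and a mean of 118 ± 23.2 (n = 5). Thy1- libraries were at 58.4, 55.5, 62.3 and 50, with a mean of 56.6 ± 5.18 (n = 4). HFSC libraries were at 42.7, 57.6, 33.1 and 39.2, with a mean of 43.2 ± 10.4 (n = 4). The order of the means was DETCs, Thy1hiYFP+, Thy1-, HFSCs and Thy1hi, and the unlabelled Thy1hi cells were the lowest of all.

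Neighbours in that order overlapped everywhere but between Thy1hiYFP+ and Thy1- cells. The mean in labelled cells was 1.66 times that in Thy1- cells (log2 difference 0.72) and 2.17 times that in HFSCs (1.12), without overlap, and 0.793 times that in DETCs (-0.32), with overlap. Of all genes tested, 7.77% had labelled libraries all above Thy1- libraries and 11.4% had them all above HFSC libraries. Thy1hi cells lay below Thy1- cells in every library (log2 difference -0.92), an arrangement that 3.17% of genes had. They lay below DETCs too (-1.96), as 18.8% of genes did, and overlapped with HFSCs (-0.52). The unlabelled Thy1hi cells were therefore on opposite sides of the Thy1- cells for the 2 genes, above for *Tspan3* and below for *Slc16a6*.

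Among the populations whose levels the choice did not use, *Tspan3* was lower in DETCs than in Thy1- cells and HFSCs, and no difference was called between the latter. Between Thy1- cells and HFSCs the log2 difference was -0.0049 (SE 0.23, 95% interval -0.49 to 0.48), with an adjusted p of 0.993 by limma and 0.971 by an exact two-sided permutation test, so that a difference of up to about 0.49 either way is within the interval. Thy1- cells were above DETCs by 0.69 (SE 0.22, interval 0.23 to 1.15), with an adjusted p of 0.0201 by limma, an exact permutation p of 0.0159 and no overlap. HFSCs were above DETCs by 0.69 (SE 0.22, interval 0.23 to 1.16), with an adjusted p of 0.0168 by limma, an exact permutation p of 0.0238, and overlap of the libraries at 59.9 and 60.0. Of all genes tested, 6.07%, 34.1% and 39.7% were called in these 3 comparisons, and 12.7% had Thy1- libraries all above DETC libraries. The first DETC difference lost its call without Thy1- replicate 3 (0.64, adjusted p = 0.0568 by limma) or without the filter on low values (0.69, 0.0513). The second lost it without HFSC replicate 2 (0.47, 0.0875) or with only HFSCs and DETCs in the fit (0.69, 0.0715). Both were lost with the replicate block over all populations (0.71, adjusted p = 0.0580 by limma, and 0.72, 0.0575). Same-numbered Thy1- and HFSC libraries were correlated at -0.226 to 0.165, so that block may join unrelated libraries. The block in HFSCs and DETCs alone, chosen after the data were seen, kept the second (0.69, adjusted p = 0.0426 by limma). It rests on 3 same-numbered pairs, since libraries whose number has no partner add nothing to the difference.

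*Slc16a6* was higher in DETCs than in Thy1- cells and HFSCs. Thy1- cells were below DETCs by 1.04 on the log2 scale (-1.04, SE 0.23, interval -1.51 to -0.56), with an adjusted p of 0.00135 by limma. HFSCs were below DETCs by a log2 difference of -1.44 (SE 0.23, interval -1.92 to -0.97), with an adjusted p of 3.99e-05 by limma. The exact permutation p was 0.00794 in both, the smallest that 4 against 5 libraries allow, and the libraries did not overlap. Non-overlap with DETCs higher was found for 18.2% of genes against Thy1- cells and 18.6% against HFSCs. Between Thy1- cells and HFSCs the difference was 0.41 (SE 0.24, interval -0.10 to 0.91), with an adjusted p of 0.304 by limma and an exact permutation p of 0.0857.

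*Amz2*, which shares exon bases with *Slc16a6*, was also at a higher level in DETCs, at 285 ± 102 (SD, n = 5) normalized counts against 83.4 ± 21.8 in Thy1- cells and 115 ± 45.3 in HFSCs (n = 4 each). Its part in the DETC values of *Slc16a6* was not tested. Between labelled and unlabelled Thy1hi cells *Amz2* was at 83.5 ± 22.9 (n = 3) and 79.7 ± 19.8 (n = 4), a log2 difference of 0.07.

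**Figure D2:**
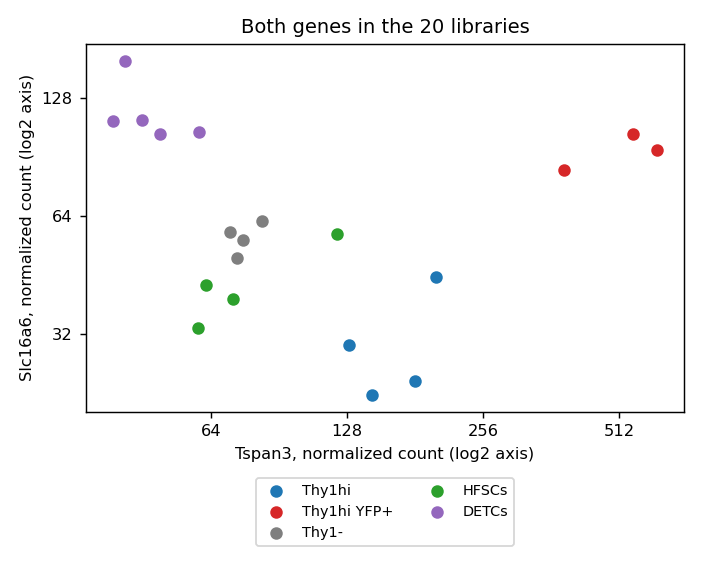
*Slc16a6* against *Tspan3*, both in normalized counts on log2 axes, with 1 point for each of the 20 libraries, coloured by population. The 3 labelled libraries are high for both genes, DETCs are high for *Slc16a6* and low for *Tspan3*, and Thy1hi cells are the reverse.

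The 2 genes did not follow each other over the libraries. Pearson's r of their log2 values was -0.11 over the 20 libraries and -0.76 over the 17 without Thy1hiYFP+ cells. The points share population, and these values describe mainly the differences between populations, as the plot of one gene against the other shows.

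The genes whose levels were most like *Tspan3* over the 20 libraries were *Stfa3* (r = 0.92), *Twf1* (0.92), *Cpox* (0.90), *Stfa1* (0.90) and *Dkc1* (0.89). *Stfa3* and *Stfa1* encode stefins, inhibitors of cysteine proteases, *Twf1* encodes an actin-binding protein, *Cpox* an enzyme of haem synthesis and *Dkc1* a protein of telomerase and of the modification of ribosomal RNA. *Stfa3* averaged 351 normalized counts in labelled cells, 65.8 in Thy1hi cells and 9.89 to 22.0 in the other populations. *Stfa1* averaged 231 in labelled cells, 20.8 in Thy1hi cells and 4.38 to 7.36 elsewhere. Without the Thy1hiYFP+ libraries the 5 most alike were *Synpo* (0.93), *Eogt* (0.90), *Birc5* (0.90), *Cpne2* (0.89) and *Nfyb* (0.89), so that no gene stood in both groups of 5. *Synpo*, an actin-associated protein, averaged 455 in Thy1hi cells but 266 in labelled cells, where *Tspan3* was at its highest.

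For *Slc16a6* the 5 genes most alike over the 20 libraries were *Slc35f6* (r = 0.88), *Tmem154* (0.88), *Nbeal2* (0.86), *Ptp4a3* (0.86) and *Sec11c* (0.85). In each of them DETCs had the highest mean and labelled cells the next highest. *Tmem154*, a membrane protein, averaged 769 in DETCs, 441 in labelled cells and 252 in Thy1hi cells. Without the labelled libraries the most alike were *Bex2* (0.94), *Map2* (0.94), *Lbh* (0.94), *Limd2* (0.93) and *Adgrl2* (0.93). *Lbh*, a transcription cofactor, averaged 1000 in DETCs, 23.2 in Thy1hi cells and 31.1 in labelled cells.

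The other tetraspanins were divided between labelled and unlabelled Thy1hi cells. Since *Tspan3* and *Slc16a6* were the only genes limma called in this comparison (0.0116% of those tested), the absence of limma calls among any other genes there was fixed by the choice and nothing is read from it. Of 30 tetraspanins listed, 22 were tested, with 2 at an unadjusted p under 0.05 by limma and none called by limma, edgeR or DESeq2. Of all 17204 genes, 1562 had an unadjusted p under 0.05 by limma. Of all 17204 genes edgeR called 2 and DESeq2 113, so that an absence of calls among 22 tells little. Their signs were split, 11 up and 11 down, and their median log2 difference was 0.00, against -0.04 over all genes. The range ran from -1.70 for *Cd53*, a tetraspanin of blood cells, to 0.85 for *Tspan8*. The 1.65 of *Tspan3* lay above all, which its choice by this difference made likely. *Cd9*, the most abundant tetraspanin over the libraries, had a difference of -0.16 (1931 against 2140 normalized counts). *Cd151* had 0.24 and *Cd81* 0.50, neither called.

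Per kb of exon, the mean level of *Tspan3* was 121 in labelled cells and 38.4 in Thy1hi cells, against 17.6 for Thy1- cells, 18.4 for HFSCs and 11.0 for DETCs. Among 29 tetraspanins with a length, *Tspan3* included, this placed it 4th in labelled cells, behind *Cd9* (945), *Cd151* (131) and *Cd81* (125). It was 10th in Thy1hi cells, 11th in both Thy1- cells and HFSCs, and 15th in DETCs. Levels of different genes in this scale still depend on which transcripts were used and on library preparation.

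Between the other populations the family had calls. Thy1- cells were above HFSCs for *Tspan5* (0.97, adjusted p = 0.00709 by limma), a regulator of ADAM10, and below them for *Tspan2* (-3.23, 0.0107), where 6.07% of all genes were called. Against DETCs, 9 of the 22 were called higher and 6 were called lower in Thy1- cells, beside 15.2% and 18.9% of all genes. The largest positive differences were in *Tspan6* (1.70), *Tspan17* (1.69) and *Cd151* (1.41), and the largest negative ones in the leukocyte tetraspanins *Cd53* (-6.74) and *Cd37* (-6.07) and *Tspan13* (-3.25). Between Thy1hi and Thy1- cells limma called no other tetraspanin, nor did edgeR or DESeq2, and none reached an unadjusted p under 0.05 by limma. Of all 17204 genes, limma called 0.337% there, edgeR 44 genes and DESeq2 210, and 1242 had an unadjusted p under 0.05 by limma. The Thy1hi and Thy1- libraries were paired by replicate number from correlations alone. With the number as a block *Cd81* was called higher in Thy1hi cells (0.48, adjusted p = 0.0396 by limma), where 6.63% of genes were called. The same kind of block for HFSCs and DETCs, chosen after the data were seen, called 42.1% of genes.

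**Figure D3:**
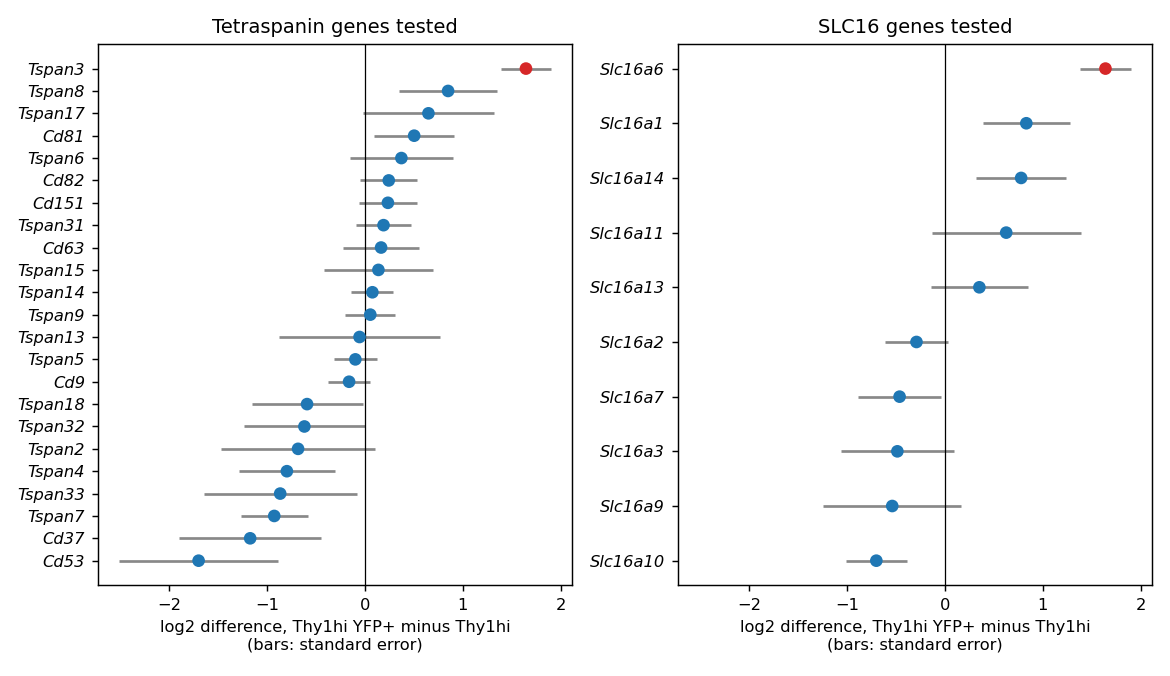
Log2 difference between Thy1hi YFP+ and Thy1hi cells, with its standard error as a bar, for the tested tetraspanin (left) and SLC16 genes (right), ordered by size. *Tspan3* and *Slc16a6* (red, chosen by this difference) lie at 1.65 and 1.64, and the other genes (blue) between -1.70 and 0.85 on the left and between -0.70 and 0.83 on the right.

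Partners of tetraspanins had a median close to that of all genes between labelled and unlabelled cells. Of 15 listed (integrins, ADAM10 and ADAM17, the immunoglobulin-like partners Igsf8 and Ptgfrn, Epcam and others), 14 were tested, with 4 higher, 10 lower and a median of -0.09, against -0.04 over all genes. By limma, 1 had an unadjusted p under 0.05, where 1562 of all 17204 genes did. As the choice fixed, none was called. *Itga6*, the integrin used for the sort and the most abundant of the list, had a difference of -0.12, and *Msi2*, the gene of Musashi 2, had -0.47. Thy1- cells exceeded HFSCs in *Ptgfrn* (1.20, adjusted p = 0.0183 by limma) and *Igsf8* (1.15, 0.0471), and were lower in *App* (-0.97, 0.0400), where 6.07% of all genes were called. Against DETCs, 8 of 14 were called higher in Thy1- cells and 1 was called lower, beside 15.2% and 18.9% of all genes. Those called higher included *Itga2* (1.92), *Itga6* (1.71) and *Itgb4* (1.58), and the gene called lower was *Igsf8* (-1.62). The sort took Thy1- cells with and DETCs without integrin-α6, which made the call of *Itga6* likely, so nothing is read from it. With the replicate block, Thy1hi cells were above Thy1- cells in *Itga3* (0.88), *Itgb4* (0.86), *Itga6* (0.81) and *Itgb1* (0.74) and below them in *Epcam* (-0.38), where the unblocked fit called none of the list and 4 of its genes had an unadjusted p under 0.05. Of all 17204 genes, 6.63% were called with the block and 0.337% without it, and 1242 had an unadjusted p under 0.05 without it.

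The other SLC16 genes were also divided in direction. Of 13 listed, 9 were tested between labelled and unlabelled Thy1hi cells, with 4 higher and 5 lower. Their median was -0.29, against -0.04 over all genes. Limma, edgeR and DESeq2 called none, and 1 had an unadjusted p under 0.05 by limma. Of all 17204 genes, 1562 had an unadjusted p under 0.05 by limma. Of the same genes edgeR called 2 and DESeq2 113, so that an absence of calls among 9 tells little. *Slc16a1*, the lactate transporter MCT1, was at 443 against 258 normalized counts (0.83, not called). *Slc16a10*, an aromatic amino acid transporter, was at 131 against 218 (-0.70, not called). Per kb of exon, *Slc16a6* was at 19.2 in labelled cells and 6.22 in Thy1hi cells, against 11.6 for Thy1- cells, 8.84 for HFSCs and 24.2 for DETCs. It was the 6th, 8th, 7th, 7th and 3rd of 12 family members in those populations.

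Thy1- cells were below HFSCs in *Slc16a7*, a pyruvate and lactate transporter (-1.56, adjusted p = 0.0200 by limma, beside 6.07% of all genes called), a call lost without Thy1- replicate 3 or HFSC replicate 2. Against DETCs they were higher in *Slc16a9* (2.18, 0.00937) and *Slc16a14* (1.28, 0.0174) and lower in *Slc16a10* (-3.10, 2.01e-08), beside 15.2% and 18.9% of all genes called higher and lower. Between Thy1hi and Thy1- cells none of the other SLC16 genes was called by limma, edgeR or DESeq2, with 2 at an unadjusted p under 0.05 by limma. Of all 17204 genes these fits called 58, 44 and 210, and 1242 had an unadjusted p under 0.05 by limma. The replicate block called *Slc16a3*, a lactate exporter (1.42), and *Slc16a9* (0.96) higher in Thy1hi cells, where it called 6.63% of all genes.

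Of 9 tested genes of lactate and pyruvate handling and of the accessory proteins of the transporters, 6 were higher in labelled than in unlabelled cells. Their median was 0.21, against -0.04 over all genes. None had an unadjusted p under 0.05 by limma, where 1562 of all 17204 genes did. *Ldha*, lactate dehydrogenase A and the most abundant of them, had 0.15. *Emb*, which encodes the accessory protein embigin, was lower in Thy1hi than in Thy1- cells (-1.33, adjusted p = 0.0458 by limma), where 0.337% of all genes were called. With the replicate block *Ldhb* (-1.31) and *Slc5a8* (-1.54), a sodium-coupled monocarboxylate transporter, were lower too, where 6.63% of all genes were called. *Ldhd* was higher (1.45) and *Emb* lower (-1.70) in Thy1- cells than in DETCs, beside 15.2% and 18.9% of all genes called higher and lower.

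Of 8 tested genes of ketone body and taurine handling, 4 were higher in labelled than in unlabelled cells. Limma called none, and 3 had an unadjusted p under 0.05, where 1562 of all 17204 genes did. *Bdh1*, which interconverts the 2 main ketone bodies, was at 174 against 83.5 normalized counts (1.06, adjusted p = 0.297 by limma), and *Aacs*, which activates acetoacetate, at 423 against 211 (0.94, 0.308). *Slc6a6*, the taurine transporter and the most abundant of the list, was at 2395 against 4093 (-0.76, 0.502). It was lower in Thy1- cells than in HFSCs (-1.32, adjusted p = 0.0104 by limma), and *Acat1* was higher in Thy1- cells than in DETCs (0.69, 0.00821). Of all genes, 6.07% were called in the first comparison and 15.2% were called higher in the second. With the replicate block, *Slc6a6* (0.77), *Csad* (0.67) and *Oxct1* (0.50) were called higher in Thy1hi than in Thy1- cells, where the fit without the block called none and 4 had an unadjusted p under 0.05. The block called 6.63% of all genes, and the fit without it 0.337%. Without the block, 1242 of all 17204 genes had an unadjusted p under 0.05.

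The neighbours of the 2 genes on the chromosomes had smaller differences. Since the 2 genes were chosen by this difference, nothing is read from their neighbours lying below them. Of 11 genes within 200 kb of *Tspan3*, 5 were tested between labelled and unlabelled Thy1hi cells, and they ran from -0.36 (*Gm7435*) to 0.79 (*Pstpip1*). Of 13 around *Slc16a6*, 8 were tested, from -1.30 (*Gm11696*) to 0.72 (*Arsg*). By limma, none of them had an unadjusted p under 0.05, where 1562 of all 17204 genes did. *Arsg*, which shares 48 exon bases with *Slc16a6*, was at 11.3 ± 7.12 normalized counts in labelled cells and 6.34 ± 4.84 in Thy1hi cells.

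**Figure D4:**
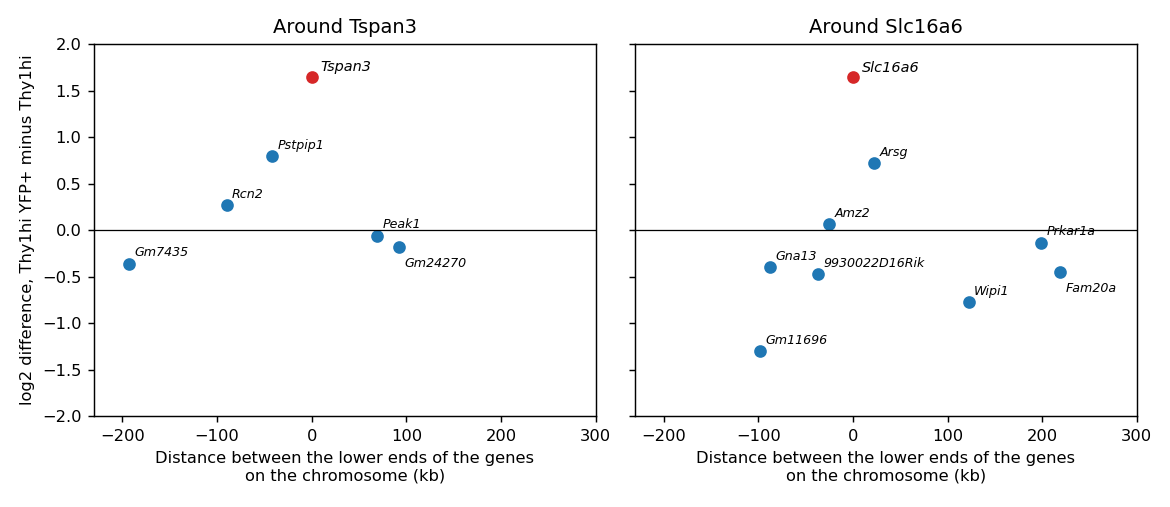
Log2 difference between Thy1hi YFP+ and Thy1hi cells for the tested genes within 200 kb of *Tspan3* (left) and *Slc16a6* (right), against the distance in kb between the lower chromosomal ends of the genes. The neighbours (blue) lie between -0.36 and 0.79 on the left and between -1.30 and 0.72 on the right, below the 2 genes (red, chosen by this difference) at 1.65 and 1.64.

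The genes just outside the threshold that chose the members are listed as values only. Next by p were *Fmnl2*, an actin regulator (1.87, 145 against 39.0 normalized counts), *Slc6a4*, the serotonin transporter (-1.89, 68.3 against 246), *Tex15* (-3.54, 1.29 against 20.9), *Fabp5*, an epidermal fatty acid-binding protein (2.54, 2179 against 348), and *Pde4d* (-1.15, 70.5 against 158). The difference of *Tspan3* and *Slc16a6* was smaller in size than that of 4 of these 5, with smaller SE (0.25 and 0.26) than that of *Fmnl2* (0.33), *Slc6a4* (0.34), *Tex15* (0.65) and *Fabp5* (0.48). The calls depended on the libraries. Without Thy1hi replicate 1, Thy1hi replicate 2 or Thy1hiYFP+ replicate 1 no gene was called by limma, and over the libraries left out in turn the difference stayed between 1.50 and 1.85 for *Tspan3* and between 1.52 and 1.84 for *Slc16a6*.

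Other measures moved with the labelled libraries. That limma called no gene of these marker lists was fixed by the choice, and nothing is read from it. Of all 17204 genes, 1562 had an unadjusted p under 0.05 by limma. All 6 genes of differentiated keratinocytes were higher in labelled than in Thy1hi cells (median log2 difference 1.21, 3 at an unadjusted p under 0.05), with summed levels of 17216 to 58497 against 8928 to 29521 normalized counts. All 5 sebocyte genes were higher (median 0.85, 1 at an unadjusted p under 0.05, 1043 to 3263 against 732 to 1507). All 6 fibroblast genes were lower (median -2.16, 5 at an unadjusted p under 0.05, 44.6 to 218 against 186 to 1946). Of 8 T cell genes, 7 were lower (median -0.91, 3 of the 8 at an unadjusted p under 0.05, 122 to 219 against 237 to 447). Basal keratinocyte genes were divided, with 3 of 7 higher and sums of 148999 to 259269 against 171932 to 229609. Of the other lists, 6 of 8 hair follicle stem cell genes, 3 of 5 melanocyte genes, 1 of 6 Langerhans cell genes and 1 of 4 endothelial genes were higher in labelled cells. The summed level of the hair follicle stem cell genes went the other way, with 9651 to 12465 in labelled libraries against 14256 to 36976 in Thy1hi libraries. The sums were 123 to 177 against 116 to 204 for melanocyte genes, 1396 to 2041 against 1506 to 2252 for Langerhans cell genes and 21.8 to 68.1 against 22.3 to 89.6 for endothelial genes. Of these lists and the basal one, only 1 gene, in the hair follicle stem cell list, had an unadjusted p under 0.05. No marker of these lists was at 0 in every library of both populations. Their part in the levels of *Tspan3* and *Slc16a6* was not tested. The Thy1- cells had differentiated keratinocyte sums of 28120 to 43044 and sebocyte sums of 714 to 1577. There *Tspan3* was at 70.5 to 82.8, below the Thy1hi libraries (129 to 202), and *Slc16a6* at 50 to 62.3, above them (22.4 to 44.7).

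Sex-linked transcripts also differed among the labelled libraries. Replicate 1 had a summed level of 4 Y-linked genes of 1370 normalized counts and 62.8 of *Xist*, and replicates 2 and 3 had 52.6 and 18.8 Y-linked and 14282 and 16375 of *Xist*. *Tspan3* in replicate 1 (548) lay between the other two (385 and 621), and *Slc16a6* (104) was highest there. In the Thy1hi libraries the Y-linked sum was 59.3 to 685 and *Xist* 4195 to 23941.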

How the data were processed

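Bulk RNA-seq of 20 libraries was analysed. The authors used STAR for alignment to mm10, featureCounts with the Ensembl annotation for counting and DESeq2 for normalization (versions of STAR and featureCounts not given in the sources used here). The signal they deposited is a normalized count per gene, rounded to 2 decimals. A value is a number of reads over the library's size factor (0.729 to 1.43), and 100% of the values came back as whole reads when multiplied by it. Between 13.1% and 41.5% of reads fell on the ribosomal gene *Rn45s*. No column was left unused.

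In replicate 4 of the Thy1- cells, 3212 genes stood in the order of names without hyphens and were put back (r with the other Thy1- libraries at 1132 of them rose from 0.0506 to 0.935). Neither *Tspan3* nor *Slc16a6* was among them. A pair of DETC columns carry numbers that match no label and are given last among the 5 DETC values.

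Differences were fitted with limma 3.58.1 (trend, R 4.3.3) on log2(value + 1), with a mean for each of the 5 populations estimated from all libraries together, two-sided, adjusted by Benjamini-Hochberg over 17204 genes, threshold 0.05. Exact permutation tests compared mean log2 values (smallest p 0.0286 for 4 against 4 libraries). Fold changes on this scale understate those of low genes. On simulated data for the comparison of Thy1hiYFP+ with Thy1hi cells (16611 genes), limma recovered 16 of the 69 genes given a 2-fold change, 63 of 63 given a 4-fold change and 68 of 68 given an 8-fold change, and it called 10 of 16411 genes given none. The simulation gave all genes the same dispersion and changed only genes above a set mean level. It therefore does not give the share of real changes that limma would call. In the data, *Fabp5* (log2 difference 2.54) and *Tex15* (-3.54) were not called by limma.

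Deviations of same-numbered libraries were positively correlated for Thy1hi and Thy1- cells (r 0.293 to 0.716 in 4 pairs, -0.652 to 0.514 in other combinations) and for HFSCs and DETCs (0.170 to 0.333 in 3 pairs, -0.318 to 0.371 otherwise), and the replicate number was used there as a block in a fit of both populations. Some differently numbered libraries were correlated as highly as same-numbered ones, so the pairing is uncertain. The pairing was read from these correlations, since the labels name no shared animal. The block over all populations also joined same-numbered libraries without such a correlation, as in Thy1- cells and HFSCs (-0.226 to 0.165 in 4 pairs). Its fits may therefore join unrelated libraries. In the block of HFSCs and DETCs, libraries whose number has no partner add nothing to the difference.

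Named genes are both members, in each list the most abundant gene and up to 3 called genes each way, the 5 most correlated genes, neighbours within 200 kb and the 5 next by p. *Cd151*, *Cd81*, *Msi2*, *Slc16a1*, *Slc16a10*, *Bdh1* and *Aacs* between labelled and unlabelled cells were added after their values were seen. Nearness in protein sequence, also planned, was not used here. The result of 1 listed gene is not reported here. Members and lists were chosen with earlier results of these data known. Positions are from GENCODE vM21 (GRCm38). Alternatives used pseudocounts of 0.1 and 10, other filters, the same total per library, quantile normalization, edgeR 4.0.16 and DESeq2 1.42.0 on whole reads, 2 populations, replicate blocks, the deposited row order, and each library left out.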

Additional observations from a re-analysis of the deposited data

Results flagged for a closer look

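Of 8 groups of 4 or 5 libraries tested for the 2 genes (Dixon's criterion, by which chance marks about 1 group in 20), 1 had a library far from the others. *Slc16a6* in DETCs was at 159.16 normalized counts in the library named a and at 103 to 113 in the other 4. Without that library the log2 difference of Thy1- cells from DETCs was -0.92 (adjusted p = 0.00410 by limma) and that of HFSCs -1.33 (0.000123), both still called.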

How the results depend on the processing

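The number of genes called between Thy1hiYFP+ and Thy1hi cells, 2 by limma and by edgeR, was 25 with a pseudocount of 10, 6 with quantile normalization, 113 with DESeq2, 16 where just both populations were fitted, 161 with a replicate block over all populations, and 0 to 4 with a library left out. Between Thy1hi and Thy1- cells the 58 became 210 with DESeq2, 95 with both populations only, 205 with the block over all populations, 1140 with the block in both populations, and 13 to 38 with a library left out. Between Thy1- cells and HFSCs the 1045 became 2402 with DESeq2, 638 with both populations only, 2676 with the block over all populations, and 511 to 1965 with a library left out (511, 652 and 602 without Thy1- replicates 1, 2 and 3 and 1965 without replicate 4). The causes were not tested.

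Of the other tetraspanins, the block in both populations called 1 between Thy1hi and Thy1- cells, and 1 in place of 2 was called between Thy1- cells and HFSCs with a pseudocount of 0.1 or a mean of at least 50. Of the other SLC16 genes, the block called 2 between Thy1hi and Thy1- cells. Between Thy1- cells and HFSCs, 2 in place of 1 were called with the same total, quantile normalization or the block over all populations, 3 with DESeq2, 0 with both populations only, and 0 to 2 with a library left out. Between Thy1- cells and DETCs, 5 in place of 3 were called with the same total or quantile normalization.

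For *Tspan3*, Thy1- cells minus HFSCs changed sign to 0.12 with the same total and 0.16 with quantile normalization, and ran from -0.11 to 0.22 with a library left out, positive without Thy1- replicate 1 (0.03), Thy1- replicate 4 (0.0098) or HFSC replicate 2 (0.22). None of these was called. The same total moved the median of all genes there to 0.16. Thy1- cells minus DETCs was not called without a filter (0.69, adjusted p = 0.0513 by limma) or with the block over all populations (0.71, 0.0580), and ran from 0.63 to 0.78 with a library left out. HFSCs minus DETCs was not called with both populations only (0.69, 0.0715) or with the block over all populations (0.72, 0.0575), and ran from 0.47 to 0.80 with a library left out. With the block in these populations alone, chosen after the data were seen and resting on 3 same-numbered pairs, it was called (0.69, adjusted p = 0.0426 by limma).

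The tested differences of *Slc16a6* kept their direction and their side of the threshold under every alternative, from -0.88 to -1.08 for Thy1- cells minus DETCs and from -1.27 to -1.59 for HFSCs minus DETCs. The Thy1hiYFP+ minus Thy1hi difference was 1.59 to 1.71 for *Tspan3* and 1.39 to 1.71 for *Slc16a6* in fits with all their libraries. The low read counts of *Slc16a6* in Thy1hi cells and of *Tspan3* in DETCs limit these values.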
